A study of Mus musculus with 6 samples.

Results

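The genes described here are 57 genes of mitosis, a set named by symbol and arranged by function, out of 15845 genes in the count table. All 57 were found in the table and all 57 passed the filter on low counts. They fell into kinases and cyclins with their regulators (11 genes), kinesins (10), centromere and kinetochore genes (10), checkpoint and anaphase genes (9), spindle and cytokinesis genes (10) and genes of chromosome condensation and the chromosome periphery (7). RNA came from LSK cells of mouse bone marrow, which lack lineage markers and carry Sca1 and c-Kit, and which hold the stem cells and early progenitors of blood. All 6 libraries came from C57BL/6 mice of the genotype Mx1Cre; Jak2VF/VF, so both groups carried the Jak2 V617F allele on both chromosomes. Mx1Cre is a Cre recombinase under an interferon-responsive promoter, active in many cell types besides blood, and no group without the allele was analysed here. There were 3 biological replicates from mice given vehicle (PBS) and 3 from mice given TP-3654, an inhibitor of PIM kinases, at 150 mg/kg/day, each over 6 weeks. The age of the mice, and whether a replicate was 1 mouse or a pool, is not given in the sources used here. The comparison asks how the drug altered expression in these cells.

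Mitosis is driven by Cdk1 bound to A- and B-type cyclins, which is held inactive by inhibitory phosphorylation until CDC25 phosphatases remove it. Polo-like and Aurora kinases then build the spindle, kinesins move chromosomes along its microtubules, and the spindle checkpoint withholds Cdc20 from the anaphase-promoting complex until every kinetochore is attached. Most of the mRNAs accumulate late in the cell cycle, in G2 and M phase. Their promoters are known for CCAAT boxes, bound by the factor NF-Y, and for the cell cycle genes homology region (CHR, TTTGAA or a close variant), read by the MuvB complex together with B-MYB and FOXM1 or with repressors in resting cells. Stem cells of the bone marrow mostly rest outside the cycle, while the progenitors downstream of them divide often.

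Because nearly all of these genes lay on the same side of vehicle, the promoters of 4 of them are shown. They belong to the 4 genes with the smallest p among those whose window held both kinds of motif. RefSeq windows of 300 bases (250 before the annotated start and 50 after it, GRCm38.p6, first window listed per gene) were available for 47 of the 57 genes. Each line gives the 250 bases before the start, 5′ to 3′ on the gene's strand. Capitals mark CCAAT (or ATTGG, its reverse complement) and TTTGAA (or TTCAAA). Where matches overlap or abut, their capitals run together.
Cdc20 (chr4:118437344-118437593, minus strand): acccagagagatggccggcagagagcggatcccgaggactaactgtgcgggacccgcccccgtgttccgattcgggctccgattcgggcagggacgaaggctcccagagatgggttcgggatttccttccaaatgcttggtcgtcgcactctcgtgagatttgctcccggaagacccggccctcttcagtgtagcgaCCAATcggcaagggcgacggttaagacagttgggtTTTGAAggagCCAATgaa
Ccnb2 (chr9:70421555-70421804, minus strand): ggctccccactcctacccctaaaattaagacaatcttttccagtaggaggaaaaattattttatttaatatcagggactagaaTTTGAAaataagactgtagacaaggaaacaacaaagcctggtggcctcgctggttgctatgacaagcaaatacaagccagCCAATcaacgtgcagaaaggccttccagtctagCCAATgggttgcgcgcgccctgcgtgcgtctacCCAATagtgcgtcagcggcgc
Cdca8 (chr4:124936918-124937167, minus strand): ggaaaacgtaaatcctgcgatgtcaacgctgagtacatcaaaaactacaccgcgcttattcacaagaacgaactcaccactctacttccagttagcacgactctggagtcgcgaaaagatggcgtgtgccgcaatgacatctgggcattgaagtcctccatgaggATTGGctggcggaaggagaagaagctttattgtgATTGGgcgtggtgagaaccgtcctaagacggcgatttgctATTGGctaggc
Ube2c (chr2:164769679-164769928, plus strand): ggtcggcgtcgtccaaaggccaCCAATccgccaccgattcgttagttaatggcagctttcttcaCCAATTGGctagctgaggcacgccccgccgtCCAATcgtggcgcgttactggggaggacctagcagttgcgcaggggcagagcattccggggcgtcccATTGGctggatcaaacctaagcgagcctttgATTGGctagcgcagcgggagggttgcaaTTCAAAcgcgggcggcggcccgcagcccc

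The promoter of Cdc20 held CCAAT boxes whose first base lay at -53 and -8, with TTTGAA at -18 between them. In Ccnb2, 3 CCAAT boxes lay at -87, -54 and -21, with TTTGAA at -167 and again at +5, just past the start. The only TTTGAA of the Cdca8 window lay past the start, at +14. Ube2c held the most CCAAT matches of the 4, namely 6, and TTTGAA at -29. Among the 47 genes with a window, 35 (74.5%) held CCAAT on either strand, 36 (76.6%) held TTTGAA, 4 (8.51%) held TTCGAA and 33 (70.2%) held CCAAT together with TTTGAA or TTCGAA. Over the 10475 tested genes with a window the shares were 39.1%, 12.3%, 2.21% and 6.21%. The median log2 fold change was -0.31 in the 33 genes with both kinds and -0.31 in those without. It was -0.29 in genes with any CCAAT and -0.32 in those without, -0.30 with TTTGAA and -0.31 without, -0.41 in the 23 genes with more than 1 CCAAT and -0.30 in the rest, and -0.37 in the 7 genes with none of the motifs. Smc2, which encodes a core subunit of condensin and was the only gene of the set not below vehicle, also held both, CCAAT at -119 and TTTGAA at -145 and +27. A match in a window is a description of its letters, not a site shown to be used.

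Library totals ran from 20582057 to 25315596 counts. In single libraries the 57 genes had between 299 and 19507 counts, well above the level of 3 counts (0.119 to 0.146 CPM, that is, counts scaled to a common library size) taken as the detection limit. The sort markers were present in each library, with Kit and Ly6a (Sca1) summing to 405 to 444 CPM in vehicle and 497 to 649 CPM in TP-3654 libraries. Vehicle replicate 1 stood apart in neutrophil RNA, with 7 markers summing to 118 CPM, against 2.12 to 22.8 CPM in the other 5 libraries. CPM below are scaled with TMM factors, which correct for differences in RNA composition, and log2 fold changes, fitted with edgeR, are negative where the drug libraries were lower. Nothing in the labels gives a batch, and p-values measure the spread between 3 replicates per group.

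Taken over the set, mitosis genes lay lower in the TP-3654 libraries. The log2 fold change was below 0 for 56 of 57 genes, with a median of -0.32, against 6297 of 13149 genes (47.9%) and a median of 0.01 in the whole table. None of the 57 passed edgeR's quasi-likelihood test at an adjusted p of 0.05, as none did in the whole table (0%). With an unadjusted p under 0.05, 28 of the 57 (49.1%) were lower and 0 higher, where all genes gave 6.84% lower and 10.2% higher (17.1% in either direction). In 29 of the 57 (50.9%) each TP-3654 library lay under each vehicle library, a pattern seen in 11.6% of all genes. DESeq2 called 7 (12.3%) lower, namely Ccnb2, Cdc25c, Kif2c, Cdca8, Cenpa, Cdc20 and Ube2c, and 0 higher, against 1.93% and 2.98% of all genes. In the authors' deposited table, which holds the same comparison, the log2 fold change was below 0 for all 57, with Smc2 at -0.01. The covariates and filter behind that table are not given. Its fold changes had the same sign as the fit here for 86.1% of the genes in both. The deposited adjusted p was under 0.05 for 3 of the 57, against 2.48% of all genes called lower. These were Cenpa (deposited adjusted p = 0.00369), Cdc20 (0.0183) and Ube2c (0.0294). Leaving out TP-3654 replicate 2 turned the count of 28 into 14, and leaving out vehicle replicate 1 turned it into 16. The count of 29 became 49 when vehicle replicate 3 was dropped and 48 when the first drug library was. Fewer libraries make that pattern easier to meet, and no whole-table share was taken for it, so the rise shows nothing about these genes.

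**Figure D1:**
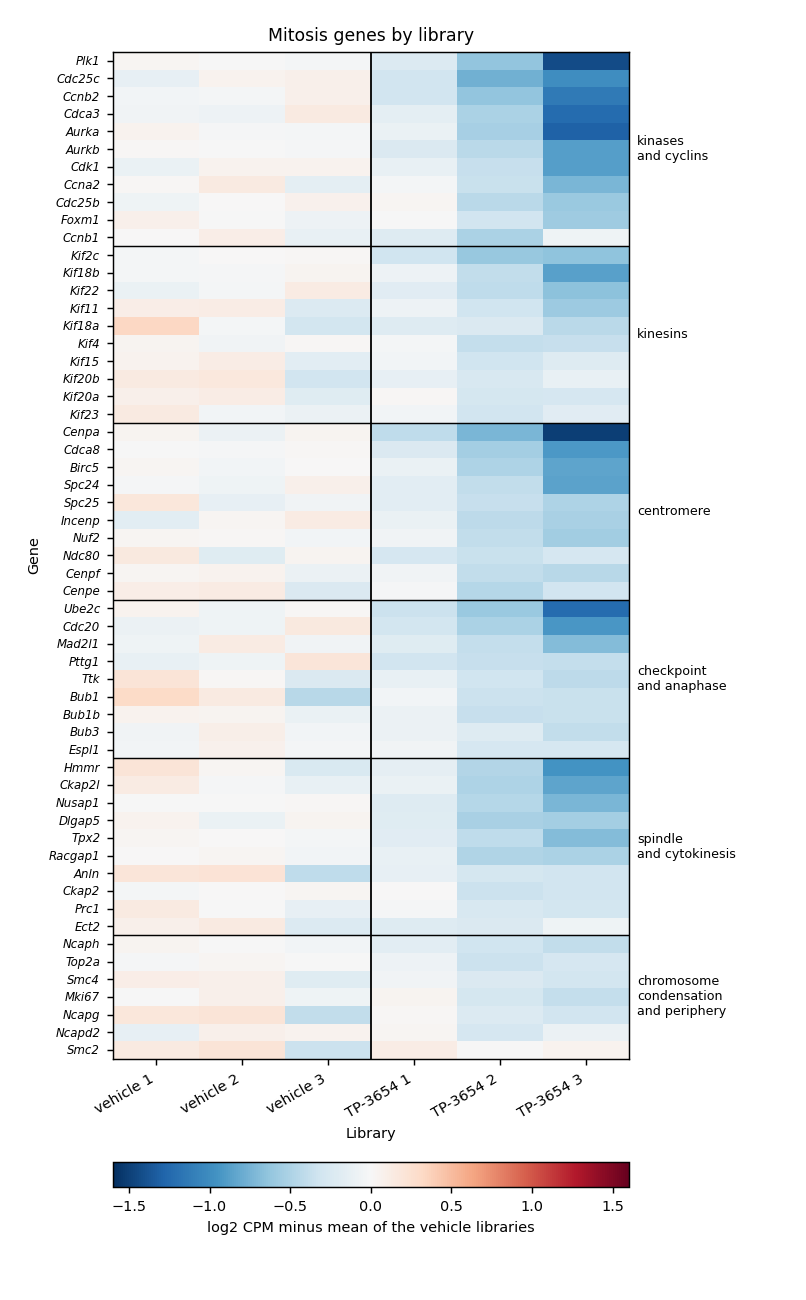
Log2 CPM of each of the 57 genes (rows, grouped by function) in each of the 6 libraries (columns), minus the gene's mean over the 3 vehicle libraries; blue is lower and red higher. The blue deepens in TP-3654 replicates 2 and 3, where the median gene lay at -0.38 and -0.50, and is pale in TP-3654 replicate 1, at -0.11.

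The TP-3654 libraries were not alike. Measured from the vehicle mean of each gene, the median gene lay at -0.11 on the log2 scale in TP-3654 replicate 1, at -0.38 in replicate 2 and at -0.50 in replicate 3, while the vehicle libraries lay between -0.04 and 0.04. The median over all genes tested stayed within 0.02 of 0 in the 6 libraries. TP-3654 replicate 1 was the highest library of its group for 53 of 57 genes and lay within the vehicle range for 27. TP-3654 replicate 3 was the lowest of all 6 libraries for 39 genes and replicate 2 for 13. For the other 5 the lowest was vehicle replicate 3. In no TP-3654 library did any of the 57 genes exceed the highest vehicle value. Summed over the set, transcripts took 8460 to 8964 CPM in vehicle and 8140, 6732 and 6093 CPM in TP-3654 replicates 1 to 3. Of the 28 genes whose groups overlapped, 23 had their lowest vehicle value in vehicle replicate 3. The typical spread within a group was larger with the drug: the median SD of log2 CPM was 0.11 among vehicle and 0.22 among TP-3654 libraries, against 0.17 and 0.18 over all genes tested.

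Among the kinases and cyclins, all 11 genes were below vehicle, with a median log2 fold change of -0.49, the lowest of the 6 groups. An unadjusted p under 0.05 was reached by 5, and groups did not overlap for 7. The whole-table shares to set beside such counts, here and in the groups below, were 6.84% and 11.6%. Cdc25c, a phosphatase that activates Cdk1, stood at 31.01, 35.4 and 35.9 CPM in vehicle replicates 1 to 3 and at 27.4, 19.9 and 16.9 CPM in TP-3654 replicates 1 to 3 (log2 fold change -0.67, SE 0.19, adjusted p = 0.141 in edgeR). Ccnb2, which encodes cyclin B2, stood at 151, 153 and 165 CPM and at 126, 101 and 71.1 CPM, a 1.58-fold lower level (log2 fold change -0.66, SE 0.19, adjusted p = 0.157). Both were lower in each drug library, and lowest in replicate 3. Aurkb, the kinase of the chromosomal passenger complex and the gene with the highest level per kilobase of this group (104 CPM per kb in vehicle), stood at 204, 202 and 200 CPM and at 173, 149 and 109 CPM (log2 fold change -0.49, SE 0.16, adjusted p = 0.183). Its vehicle values lay within a few CPM of each other, and its drug values spread out below them.

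Plk1, the polo-like kinase of mitotic entry and spindle assembly, stood at 140, 136 and 133 CPM in vehicle and at 118, 88.1 and 50.4 CPM with the drug (log2 fold change -0.68, SE 0.28, adjusted p = 0.285). Each drug library lay below vehicle, with replicate 3 far below the others, and the SE was the largest of the set. Aurka (log2 fold change -0.57) and Cdca3 (-0.57), which promotes mitotic entry, had the same shape, with 46.2 and 72.1 CPM in replicate 3 against at least 112 and 161 CPM in vehicle. Cdk1, the kinase at the centre of mitotic entry, stood at 241, 271 and 271 CPM and at 241, 201 and 141 CPM. Its groups separated by less than 1 CPM, between vehicle replicate 1 (241.2) and TP-3654 replicate 1 (240.8). The transcription factor gene Foxm1, whose product drives many G2 and M genes, stood at 150, 140 and 133 CPM and at 141, 114 and 95.2 CPM, with overlapping groups (log2 fold change -0.27, SE 0.15, adjusted p = 0.359).

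Ccnb1, which encodes cyclin B1, departed from the other genes of this group in TP-3654 replicate 3. It stood at 90.5, 97.1 and 83.3 CPM in vehicle and at 78.2, 63.4 and 86.1 CPM with the drug (log2 fold change -0.25, SE 0.13, adjusted p = 0.361). Replicate 3 was therefore the highest drug library for Ccnb1 and the lowest for Ccnb2. The ratio of Ccnb2 to Ccnb1 CPM was 1.57 to 1.99 in vehicle, 1.61 and 1.59 in TP-3654 replicates 1 and 2 and 0.826 in replicate 3. Ccnb1 shares 27.7% of its 31-base words with other loci, mostly Ccnb1-ps and Gm12856, so its count is uncertain. Plk1 (14.8%, mostly Plk-ps1) and Cdc20 (25.5%, mostly Gm7856) are uncertain for the same reason. Ccnb2 and Cdk1 shared 0.0%.

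**Figure D2:**
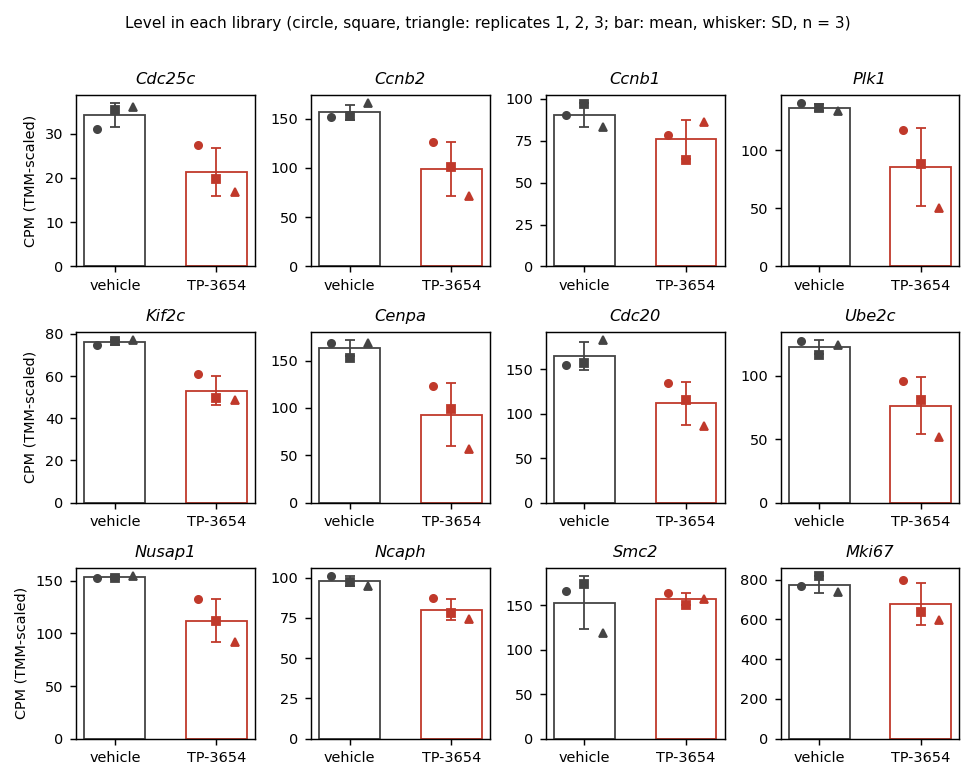
TMM-scaled CPM of 12 genes in the vehicle (grey) and TP-3654 (red) libraries; points are single libraries, with symbols for replicates 1 to 3, bars the mean and whiskers the SD (n = 3). Plk1, Cenpa and Ube2c have their lowest value in TP-3654 replicate 3, Ccnb1 has its highest drug value in replicate 3, and Smc2 overlaps.

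Of the 10 kinesins, motors that move along microtubules or depolymerise them, all were below vehicle, with a median log2 fold change of -0.28. An unadjusted p under 0.05 and separate groups were found for the same 3, Kif2c, Kif22 and Kif18b. Kif2c, which depolymerises microtubules at the centromere and frees wrongly attached chromosomes, had the smallest p of all 57 genes. It stood at 74.6, 76.5 and 77.0 CPM in vehicle and at 60.9, 49.7 and 48.7 CPM with TP-3654, 1.43-fold lower (log2 fold change -0.52, SE 0.12, adjusted p = 0.0971 in edgeR). Its log2 fold change kept between -0.63 and -0.47 with any 1 library left out. Kif22, a chromosome-arm motor with 67.6 CPM per kb in vehicle, stood at 133, 140 and 156 CPM and at 125, 108 and 90.7 CPM. Kif18b, which works at microtubule plus ends, stood at 87.9, 88.6 and 92.1 CPM and at 84.6, 68.0 and 48.9 CPM. In both the drug libraries lay under vehicle, for Kif18b by 3.95% of the highest drug value. The smallest differences were those of Kif20a, Kif20b and Kif23, motors of the central spindle and cytokinesis. Kif20b stood at 97.5, 98.9 and 71.1 CPM and at 80.7, 73.7 and 81.0 CPM, with vehicle replicate 3 the lowest of all 6 (log2 fold change -0.18, SE 0.14, adjusted p = 0.502), and Kif20a and Kif23 had log2 fold changes of -0.18 each. Kif20a overlaps exons of Cdc23 on the opposite strand over 29.3% of its exonic length.

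Centromere and kinetochore genes, which mark the chromosome's attachment point and hold it to the spindle, were lower in 10 of 10 cases, with a median log2 fold change of -0.35. An unadjusted p under 0.05 was reached by 8, and groups did not overlap for 7. The count of 8 became 3 when either vehicle replicate 1 or TP-3654 replicate 2 was dropped, 4 when vehicle replicate 3 was and 5 when TP-3654 replicate 3 was. With any 1 library dropped, the same count ran from 3 to 10 for kinases and cyclins, 2 to 5 for kinesins, 3 to 6 for checkpoint and anaphase genes, 3 to 8 for spindle and cytokinesis genes and 0 to 3 for condensation genes. Cenpa, the histone H3 variant that defines the centromere, had the lowest log2 fold change of the set. It stood at 169, 153 and 168 CPM in vehicle and at 123, 98.4 and 57.0 CPM with TP-3654, 1.76-fold lower (log2 fold change -0.81, SE 0.25, adjusted p = 0.196). Cdca8, which encodes borealin of the chromosomal passenger complex, stood at 173, 172 and 176 CPM and at 148, 119 and 91.2 CPM (log2 fold change -0.54, SE 0.16, adjusted p = 0.168). Spc24, a subunit of the NDC80 complex that binds microtubules, stood at 87.9, 84.8 and 94.5 CPM and at 78.9, 67.7 and 48.8 CPM (log2 fold change -0.45, SE 0.17, adjusted p = 0.229). The largest p belonged to Cenpe, a kinetochore motor, with 103, 105 and 81.4 CPM and 94.8, 69.9 and 77.3 CPM (log2 fold change -0.26, SE 0.15, adjusted p = 0.395).

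In the chromosomal passenger complex (Aurkb, Birc5, Incenp and Cdca8), which corrects attachments and guides cytokinesis, the 4 log2 fold changes ran from -0.54 to -0.34, all with an unadjusted p under 0.05, and 3 of the 4 had groups that did not overlap. In the NDC80 complex (Ndc80, Nuf2, Spc24 and Spc25) they ran from -0.45 to -0.31, again 4 of 4 with an unadjusted p under 0.05, and all 4 were lower in each drug library. The mitotic checkpoint complex (Bub1b, Bub3, Mad2l1 and Cdc20) ran from -0.56 to -0.23. Condensin I ran from -0.29 to 0.04 and centralspindlin (Kif23 and Racgap1) from -0.36 to -0.18, with 1 gene of each at an unadjusted p under 0.05. These complexes were grouped after the values had been seen.

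All 9 checkpoint and anaphase genes were below vehicle, with a median log2 fold change of -0.29, 5 at an unadjusted p under 0.05 and 6 with separate groups. The genes that act with the anaphase-promoting complex led. Cdc20, its activator, stood at 154, 157 and 183 CPM in vehicle and at 134, 115 and 86.2 CPM with TP-3654, 1.47-fold lower (log2 fold change -0.56, SE 0.16, adjusted p = 0.157). Ube2c, its ubiquitin-conjugating enzyme, stood at 127, 116 and 124 CPM and at 96.1, 81.1 and 52.0 CPM, 1.61-fold lower (log2 fold change -0.68, SE 0.20, adjusted p = 0.170). Exons of Tnnc2 on the opposite strand cover most of the 22.8% of Ube2c's exonic length that overlaps another gene. Mad2l1, the checkpoint protein that sequesters Cdc20, stood at 146, 167 and 147 CPM and at 134, 117 and 94.4 CPM (log2 fold change -0.41, SE 0.14, adjusted p = 0.203). Securin, encoded by Pttg1, had a log2 fold change of -0.37, and separase, encoded by Espl1 and released from securin at anaphase, one of -0.19. The checkpoint kinase gene Bub1 had the largest p, with 91.1, 81.7 and 54.0 CPM and 71.8, 58.1 and 57.4 CPM. Its lowest value lay in vehicle replicate 3 (log2 fold change -0.28, SE 0.19, adjusted p = 0.470).

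**Figure D3:**
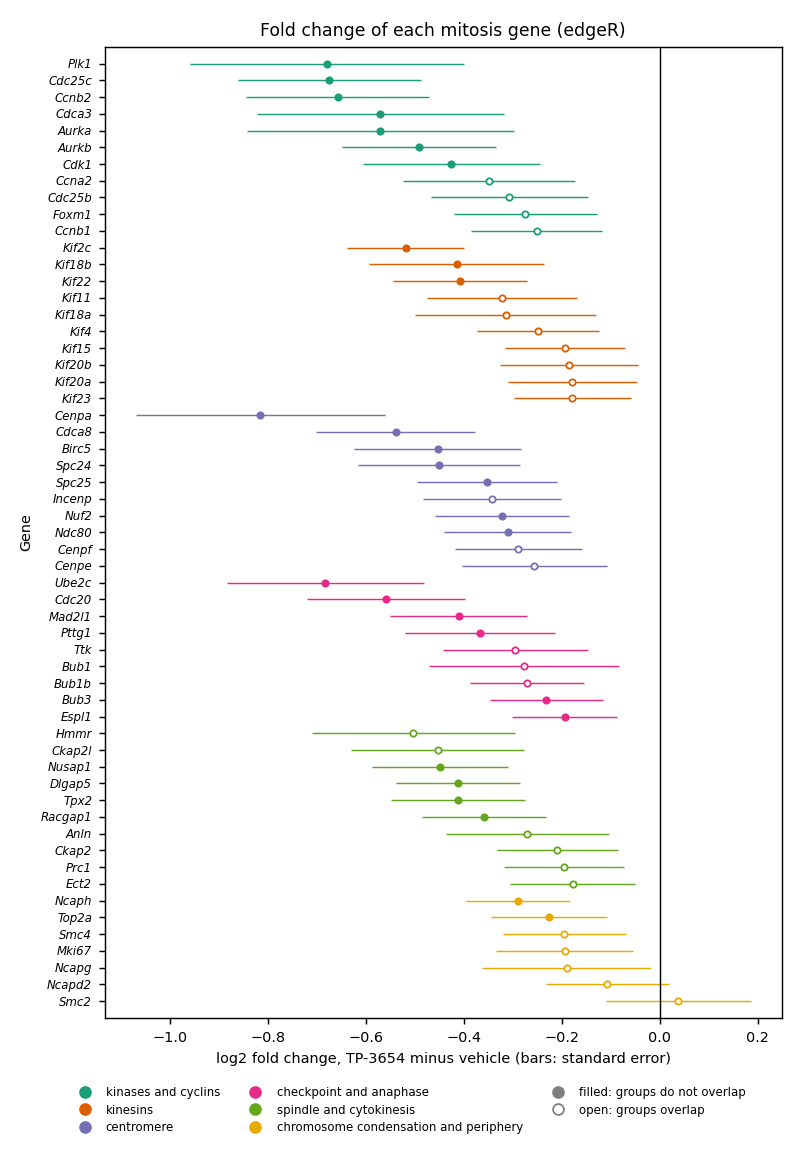
Log2 fold change (TP-3654 minus vehicle, edgeR) of each gene with its standard error, coloured by functional group; filled points are genes whose groups do not overlap. All points but Smc2 lie below 0, from -0.81 for Cenpa to -0.11 for Ncapd2, with Smc2 at 0.04.

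Spindle and cytokinesis genes were lower in 10 of 10 cases, with a median log2 fold change of -0.39, 6 at an unadjusted p under 0.05 and 4 with separate groups. Those 4 were Dlgap5, Nusap1, Tpx2 and Racgap1. Nusap1, which bundles microtubules around chromosomes, stood at 152, 152 and 155 CPM in vehicle and at 133, 112 and 91.7 CPM with the drug (log2 fold change -0.45, SE 0.14, adjusted p = 0.174). Tpx2, the activator of Aurora A, stood at 219, 216 and 210 CPM and at 190, 161 and 133 CPM (log2 fold change -0.41, SE 0.14, adjusted p = 0.194). For both, the vehicle libraries were tightly grouped and the drug libraries spread below them. Dlgap5, which stabilises kinetochore fibres, stood at 84.3, 75.5 and 84.0 CPM and at 70.8, 56.7 and 55.6 CPM (log2 fold change -0.41, SE 0.13, adjusted p = 0.173). Racgap1, the centralspindlin subunit with 54.0 CPM per kb in vehicle, stood at 166, 168 and 160 CPM and at 152, 118 and 116 CPM. Ect2, the exchange factor that starts the cleavage furrow, had the largest p, with 64.5, 67.3 and 52.5 CPM and 52.9, 52.0 and 58.2 CPM. There vehicle replicate 3 lay among the drug libraries (log2 fold change -0.18, SE 0.13, adjusted p = 0.479).

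Genes of chromosome condensation and the chromosome periphery differed least, with a median log2 fold change of -0.19, 6 of 7 below vehicle, 1 at an unadjusted p under 0.05 and 2 with separate groups. Ncaph, the kleisin of condensin I, was the one, at 101, 97.2 and 94.8 CPM in vehicle and 87.2, 78.2 and 74.5 CPM with the drug (log2 fold change -0.29, SE 0.11, adjusted p = 0.228). Top2a, the topoisomerase that untangles sister DNA, had the highest level per kilobase of the set (146 CPM per kb in vehicle). It stood at 748, 776 and 755 CPM and at 716, 600 and 633 CPM (log2 fold change -0.23, SE 0.12, adjusted p = 0.351). Mki67, which encodes the proliferation marker Ki-67 that coats mitotic chromosomes, stood at 769, 819 and 736 CPM and at 798, 638 and 595 CPM, with TP-3654 replicate 1 inside the vehicle range (log2 fold change -0.19, SE 0.14, adjusted p = 0.480). Smc4 stood at 307, 301 and 248 CPM and at 274, 243 and 232 CPM. Its partner Smc2 stood at 166, 174 and 118 CPM and at 164, 150 and 157 CPM (log2 fold change 0.04, SE 0.15, adjusted p = 0.909), and its log2 fold change was -0.12 without vehicle replicate 3. Condensin I subunits thus overlapped between groups except for Ncaph.

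**Figure D4:**
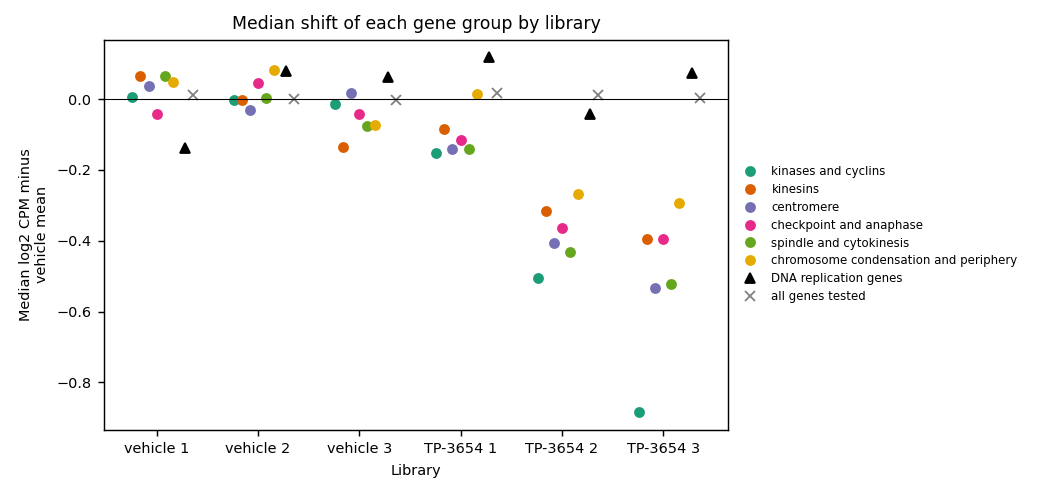
Median over each gene group of log2 CPM minus the vehicle mean, in each of the 6 libraries; coloured circles are the 6 groups of mitosis genes, triangles 36 DNA replication genes and crosses all genes tested. Kinases and cyclins reach -0.88 in TP-3654 replicate 3, while replication genes lie between -0.14 and 0.12 in all 6 libraries.

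The groups differed most in TP-3654 replicate 3. There the median of the kinases and cyclins lay at -0.88 from the vehicle mean, that of centromere genes at -0.53, of spindle and cytokinesis genes at -0.52, of checkpoint and anaphase genes at -0.40, of kinesins at -0.40 and of condensation genes at -0.29. In replicate 2 the same 6 medians ran from -0.50 to -0.27, with the kinases and cyclins again lowest. In replicate 1 they ran from -0.15 to 0.01. Plk1 over Mki67 CPM was 0.167 to 0.182 in vehicle and 0.147, 0.138 and 0.0847 in TP-3654 replicates 1 to 3, and Cenpa over Smc2 was 0.881 to 1.42 and 0.753, 0.654 and 0.364. Cdc20 over Bub1b was 0.767 to 1.02 in vehicle and 0.743, 0.771 and 0.572 with the drug, with replicate 2 inside the vehicle range. These pairs were chosen after values had been seen.

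The size of the difference went with transcript length. Across the 57 genes Spearman's rho between the length of the longest coding transcript and the log2 fold change was 0.63, and across 12408 tested genes with a length it was 0.32. Genes share libraries and are not independent, so this is a description with no test. Of 29 mitosis genes with transcripts up to 3334 bases, 21 (72.4%) had an unadjusted p under 0.05 and the median log2 fold change was -0.41. Of the 28 longer ones 7 did, with a median of -0.25. Other tested genes showed the same split around 0, with 9.67% lower at an unadjusted p under 0.05 and a median of -0.07 for short ones, and 3.63% and 0.12 for long ones. Cenpa, Ccnb2, Cdc25c, Cdc20 and Aurkb are short, and Cenpf, Mki67, Top2a and Smc2 are long. When each library's length trend was removed by an offset, an alternative added after the data were seen, the median of the set was -0.35, all 57 genes lay below 0 and 38 had an unadjusted p under 0.05 (7.37% of all genes), with 18 of the 29 short and 20 of the 28 long ones. The medians of short and long genes were then -0.36 and -0.35, rho was 0.08, and no gene passed the adjusted test. With an offset for GC content instead, 41 had an unadjusted p under 0.05. What produced the length trend was not tested.

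**Figure D5:**
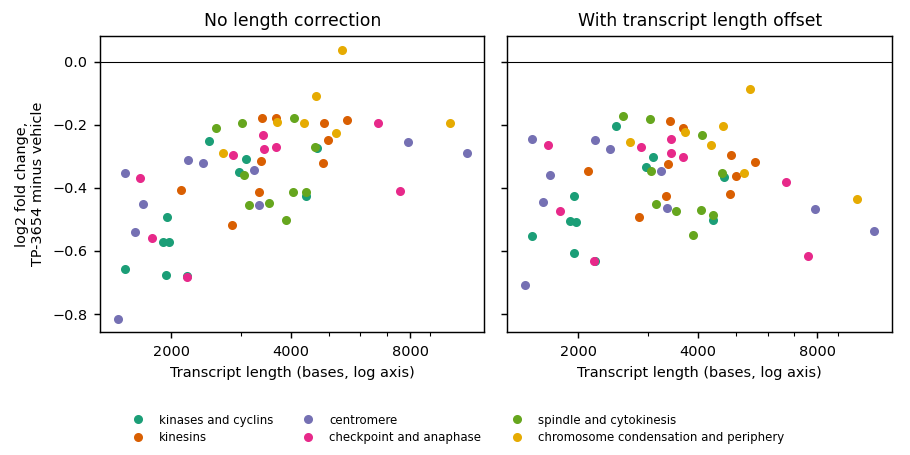
Log2 fold change of the 57 genes (vertical axis) against the length of the longest coding transcript in bases (log axis), as fitted without correction (left) and with a per-library length offset (right). The slope on the left, from Cenpa at -0.81 to Smc2 at 0.04, is absent on the right, where rho is 0.08 and every gene lies below 0.

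Markers of other cell types differed between the groups as well. In bulk RNA, fewer cells of a type and less RNA per cell cannot be told apart. All 9 granulocyte-monocyte progenitor markers, among them Mpo, Elane and Cebpa, were below vehicle, and they summed to 10240 to 13140 CPM in vehicle and to 3913, 7490 and 2286 CPM in TP-3654 replicates 1 to 3. Among the drug libraries this sum was highest in replicate 2 and lowest in replicate 3. The 9 stem cell markers summed to 311 to 375 CPM in vehicle and 547 to 605 CPM with the drug. The sum of 9 erythroid markers, most of it globin, Car1, Car2 and Tfrc RNA, overlapped between groups, at 1151 to 2232 CPM in vehicle and 1230 to 2349 CPM with the drug. Single members differed from that sum. Gata1, which encodes a transcription factor of erythroid and megakaryocyte cells, stood at 93.0, 84.0 and 80.9 CPM in vehicle and at 76.3, 56.3 and 25.8 CPM in TP-3654 replicates 1 to 3, and was the 1 marker of the list whose groups did not overlap. Klf1 (58.4, 46.3 and 5.88 CPM), Epor (33.2, 25.2 and 5.47 CPM) and Car1 (239, 218 and 36.6 CPM) were also highest in replicate 1 and lowest in replicate 3 among the drug libraries. The globin genes Hba-a1 and Hbb-bt were lowest in replicate 2 among them. None of the 9 had an unadjusted p under 0.05 in edgeR, and DESeq2 called 0. All 5 mast cell and basophil markers were below vehicle (median log2 fold change -0.65), 3 of them at an unadjusted p under 0.05 and with groups that did not overlap, and DESeq2 called 2. Over all genes the shares lower by these 3 measures were 6.84%, 11.6% and 1.93%. The 5 markers summed to 235 to 286 CPM in vehicle and to 166, 238.5 and 95.0 CPM in the drug libraries, lowest in replicate 3. Of the 5 T and NK cell markers, 2 passed the filter on low counts, and they went opposite ways. Nkg7 stood at 224 to 263 CPM in vehicle and 134 to 216 CPM with the drug (DESeq2 adjusted p = 0.0435). The other had a log2 fold change of 0.46, with each drug library above vehicle. The T cell marker Cd3e stood at 0 to 0.0387 CPM. The part of these cell types in the lower mitosis genes was not tested.

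Further genes of the same machinery were read from lists beside the 57. Over all genes tested, 6.84% were lower and 10.2% higher at an unadjusted p under 0.05. Of 35 other kinetochore and inner centromere genes, 31 were below vehicle (median log2 fold change -0.24), 9 lower and 0 higher at an unadjusted p under 0.05, and none passed the adjusted test in edgeR or was called by DESeq2. Oip5 (-0.54) and Mis18a (-0.41), which help to load Cenpa, and the spindle-coupling gene Ska1 (-0.60) had the smallest p. Of 35 other spindle, centrosome and midbody genes, 29 were below vehicle (median -0.21), with 5 lower and 0 higher at an unadjusted p under 0.05 and 0 passing the adjusted test in edgeR. Knstrn, which encodes a spindle and kinetochore protein, stood at 126 ± 11.1 CPM in vehicle and 84.8 ± 9.03 CPM with TP-3654 (SD, n = 3). The difference was -0.57 on the log2 scale (SE 0.12, adjusted p = 0.0831 in edgeR). Knstrn was the one gene of that list called by DESeq2 (2.86% of the list, against 1.93% of all genes called lower). Of 20 genes of mitotic entry and exit, CDK binding and the centrosome, 4 were lower and 0 higher at an unadjusted p under 0.05. In edgeR 0 passed the adjusted test, and DESeq2 called 1 lower (5.0%, against 1.93% of all genes). Cks1b (-0.46), a CDK-binding protein, Nek2 (-0.48), which splits centrosomes, and Ccnf (-0.36) led the list. Neither of the kinase genes that brake entry, Wee1 (0.18) and Pkmyt1 (-0.22), had an unadjusted p under 0.05.

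Of 20 anaphase-promoting complex genes and their enzymes and inhibitors, 1 (5.0%) was lower at an unadjusted p under 0.05, against 6.84% of all genes. That gene was Fzr1 (log2 fold change -0.45), which encodes the activator Cdh1 of late mitosis and G1. The list's median was -0.13, and 15 of the 20 were below vehicle, against 47.9% of all genes. In 5 of the 20 each drug library lay under each vehicle library, where all genes gave 11.6%. None of the 20 passed the adjusted test in edgeR, and DESeq2 called 0. Of the 15 cohesin and condensin II genes, 2 were below vehicle, and the median was 0.17. Tested genes outside the mitosis set with transcripts over 3334 bases had a median of 0.12. The part of transcript length in this list's median was not tested. At an unadjusted p under 0.05, 0 were lower or higher, with 0 called by edgeR or DESeq2. In 2 of the 15 (13.3%) each drug library lay above vehicle, where all genes gave 14.3%. Among 15 MuvB, DREAM and NF-Y genes, whose products regulate mitotic promoters, the median was 0.05, with 0 called by edgeR or DESeq2. Tfdp2 (0.30) alone had an unadjusted p under 0.05 (6.67% of the list, against 10.2% of all genes higher). The 36 genes of DNA replication, which are transcribed earlier in the cycle, had a median of 0.05, with Pole (0.36) higher at an unadjusted p under 0.05, 0 lower, 0 called by either tool and groups that overlapped for all 36. Whether the mitosis and replication genes differed from each other was not tested. Their sums ran from 6750 to 7989 CPM in vehicle and from 7401 to 8224 CPM with the drug.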

How the data were processed

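Per the labels' protocols, lineage-depleted marrow was sorted for LSK cells and poly(A) RNA libraries were prepared by NEBNext Ultra II. Whole-number counts were deposited by the authors for each Entrez gene, 1 column per library. Their own deposited comparison holds, per the file headers, a signal (mean of normalized counts), a log2 fold change and its error, a score (the Wald statistic) and p-values. Per the submitters' processing notes, HISAT2 2.1.0, SAMtools 1.9.0 and DESeq2 were used, with mm10 and GRCm38 as builds. Which program counted the reads, with which annotation and strand option, is not given in the sources used here, so overlapping and antisense genes cannot be told apart.

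Symbols came from the deposited table, else RefSeq (15839 of 15845). Counts were tested with edgeR 4.0.16 in R 4.3.3 (TMM, filterByExpr, robust quasi-likelihood, Benjamini-Hochberg over 13149 genes), and the SE is the absolute log2 fold change over the root of F. The 2696 genes removed held 0.0674% of counts. Log2 CPM used a pseudocount of 0.5. Levels per kb and lengths used the longest GENCODE M21 coding transcript. Alternatives were DESeq2 1.42.0, limma-voom (limma 3.58.1), other factors and filters, a replicate block, single libraries left out, and length and GC offsets. The edgeR step was tested on simulated data. Genes named in full were, per group, the 3 with the smallest p, the highest level per kb and the largest p, plus Cdk1, Ccnb1, Plk1, Aurkb, Foxm1, Mki67 and Top2a, and per further list up to 3 with the smallest p. Printed promoters belong to the 4 members with the smallest p whose window held both motifs, chromosome 18 left out. Others were named after their values were seen. The members and lists were chosen with earlier results of these data known.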

Additional observations from a re-analysis of the deposited data

How the results depend on the processing

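The median log2 fold change of the mitosis genes lay between -0.37 and -0.31 under DESeq2, limma-voom, other scaling factors, other filters, the non-robust fit, the replicate block and the length and GC offsets, and between -0.45 and -0.25 with 1 library left out. DESeq2 called 7 mitosis genes and 644 genes in all, while no other alternative called a mitosis gene. Over the whole table edgeR called 5 genes without a low-count filter, 3 with the replicate block and 0 to 31 with 1 library left out. With 1 library left out, the genes at an unadjusted p under 0.05 numbered 14 to 37. Those lower in every TP-3654 library numbered 29 to 49, a count that leaving out a library can hardly lower. Smc2 changed sign, to -0.0871 with the length offset, -0.0448 with the GC offset and -0.12 without vehicle replicate 3 (range with 1 library left out -0.12 to 0.13), and the cause was not tested. Of the 57 genes the other 56 lay below 0 under all 16 alternatives. Same-numbered replicates did not deviate together (correlations 0.0150, -0.0360 and 0.0242). With 3 libraries per group such values cannot exclude a pairing, and the main fit used none. The replicate block gave 27 genes at an unadjusted p under 0.05. With 3 replicates per group, adjusted p-values limit what single genes can show, and 33 of the 57 genes share over 1% of their 31-base words with other loci. The 24 others had a median of -0.32.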
